A study of Mus musculus with 12 samples.

Results

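Mast cells are tissue-resident leukocytes that sit around vessels, nerves and glands of the skin. They store histamine and serine proteases in granules, and they release both when IgE bound to its high-affinity receptor is cross-linked by antigen, or when peptides and drugs act on the receptor MRGPRB2. Stem cell factor, the ligand of the receptor KIT, keeps them alive in tissue. In mouse skin they are mostly of the connective tissue type, which is rich in the chymase MCPT4, the chymase-family elastase CMA1, tryptases and carboxypeptidase A3, whereas mucosal mast cells carry MCPT1 and MCPT2.

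The 10 mast cell genes *Mcpt4*, *Cma1*, *Tpsb2*, *Tpsab1*, *Cpa3*, *Fcer1a*, *Ms4a2*, *Kit*, *Mrgprb2* and *Hdc* were chosen by name from 21247 genes of a count table of periocular skin. The rule itself uses no measured value, but earlier results of these data were known when the genes were chosen. All 10 were in the table and all 10 reached the minimum of 10 counts summed over the 8 libraries that 20454 genes reached. The libraries came from skin next to the eye of mice given as 6 weeks old and female, on a BALB/c background. The 4 libraries labelled ft/ft came from mice whose filaggrin gene carries a natural inactivating point mutation (filaggrin is a protein of the outer epidermis), in a line from which, per the methods, the matted mutation had been removed. The 4 labelled ft/ftMyD88-/- came from an in-house cross of that line with MyD88-deficient mice, so both groups share the filaggrin mutation and differ, by label, in MyD88, the adaptor through which toll-like and IL-1 family receptors signal. The deficiency is not limited to one cell type, so by label mast cells lacked MyD88 as well as all other cells of the skin. The 4 WT samples were not analysed here, and no level below is set against WT skin.

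The 4 ft/ft libraries held 18941705 to 29255129 counts, and the 4 ft/ftMyD88-/- libraries 15802957 to 27037997. A library with 0 counts of a gene allows a level of up to 3 counts, or 0.102 to 0.183 CPM (counts per 1e6, here scaled between libraries by edgeR's TMM method). *Myd88* stood at 32.1, 36.5, 28.7 and 25.4 CPM in replicates 1 to 4 labelled ft/ft and at 38.8, 48.8, 32.2 and 44.9 in those labelled ft/ftMyD88-/-. The ranges overlapped, and the log2 fold change was 0.42 (edgeR adjusted p = 0.0484). Its gene count was thus called higher, not lower, in the group labelled MyD88-deficient, and every direction below rests on the labels. *Tmem79*, the gene that the matted mutation affects, was at 55.4 to 62.0 CPM in ft/ft and at 13.8 to 18.8 in ft/ftMyD88-/-, without overlap (log2 fold change -1.85, and an adjusted p of 5.08e-07 by edgeR). The groups thus differed at that gene as well, whose sequence the counts do not show, and a difference at the matted locus and the MyD88 label cannot be told apart here. *Flg*, the filaggrin gene mutated in both groups, was at 103 ± 69.8 CPM in ft/ft against 242 ± 39.5 (SD, n = 4 each, log2 fold change 1.22, edgeR adjusted p = 0.12). The sex-linked *Xist* had 0 or 1 counts in each ft/ft library and 34.6 to 66.8 CPM in ft/ftMyD88-/-, while the Y-linked *Ddx3y* was at 54.2 to 73.2 CPM in ft/ft and at 0 to 0.482 in ft/ftMyD88-/-. Sex and genotype therefore cannot be told apart in any comparison of these 2 groups, and the sex of the ft/ft libraries goes against the series' own description of the mice. In whole tissue, fewer cells of a type and less RNA per cell cannot be told apart either.

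The promoters are given ahead of the values. RefSeq holds a promoter of 300 bases (250 before and 50 after the start) for 8 of the 10 genes in GRCm38.p6, a genome of C57BL/6J and not of BALB/c. The motif GATAA, which GATA factors such as the mast cell regulator GATA2 recognize, was searched on both strands. It occurred in 6 of the 8, those of *Mcpt4*, *Cma1*, *Cpa3*, *Fcer1a*, *Ms4a2* and *Mrgprb2*, and in 25.8% of the first-listed promoters of 27025 genes. The MITF motif CATGTG occurred in 1 of the 8, that of *Fcer1a*, and in 14.1% of all, and CACGTG in none of the 8 and in 7.24% of all. These are matches of letters and not binding sites. The stretches below are the bases ahead of each gene's RefSeq start, 5′ to 3′ on the gene's own minus strand, with GATAA or its reverse complement TTATC in capitals. They are shown for the chymase-family genes and *Cpa3*, which moved together, for *Fcer1a*, which differed most between the groups, and for *Mrgprb2*, which was lower in mean.
Mcpt4, chr14:56062311-56062560: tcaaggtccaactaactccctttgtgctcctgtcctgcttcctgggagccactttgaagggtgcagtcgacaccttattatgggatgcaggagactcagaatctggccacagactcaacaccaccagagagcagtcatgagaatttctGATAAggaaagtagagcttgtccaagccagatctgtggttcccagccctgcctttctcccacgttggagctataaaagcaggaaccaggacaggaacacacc
Cma1, chr14:55944676-55944925: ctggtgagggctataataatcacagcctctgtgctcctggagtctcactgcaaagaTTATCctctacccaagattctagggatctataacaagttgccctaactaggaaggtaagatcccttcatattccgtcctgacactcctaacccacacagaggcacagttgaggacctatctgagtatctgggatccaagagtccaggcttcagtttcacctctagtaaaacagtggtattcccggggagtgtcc
Cpa3, chr3:20242210-20242431: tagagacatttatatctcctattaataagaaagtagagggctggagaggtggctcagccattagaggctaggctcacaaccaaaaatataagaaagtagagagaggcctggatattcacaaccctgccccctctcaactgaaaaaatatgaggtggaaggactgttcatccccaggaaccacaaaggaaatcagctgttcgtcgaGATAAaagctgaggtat
Fcer1a, chr1:173227233-173227479: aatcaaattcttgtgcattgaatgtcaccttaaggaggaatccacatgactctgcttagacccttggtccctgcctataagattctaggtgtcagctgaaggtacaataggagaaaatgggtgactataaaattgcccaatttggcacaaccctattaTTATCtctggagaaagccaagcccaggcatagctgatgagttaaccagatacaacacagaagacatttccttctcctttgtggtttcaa
Mrgprb2, chr7:48558087-48558336: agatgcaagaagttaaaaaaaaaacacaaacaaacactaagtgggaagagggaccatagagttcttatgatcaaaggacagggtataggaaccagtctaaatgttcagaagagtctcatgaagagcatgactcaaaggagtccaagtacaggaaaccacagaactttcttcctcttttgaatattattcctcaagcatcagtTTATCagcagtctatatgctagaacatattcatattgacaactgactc

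Of the 10 genes, 2 were higher in ft/ftMyD88-/- at an edgeR adjusted p under 0.05, *Fcer1a* and *Hdc*, and the other 8 were not called. Among all genes tested, 10.9% were called higher and 12.3% lower. DESeq2 called 4 of the 10 higher, with *Cma1* and *Ms4a2* added, and limma voom called 2. At an unadjusted edgeR p under 0.05, 4 had a higher mean. None of the 10 was called lower by edgeR, DESeq2 or limma voom, and 1, *Mrgprb2*, had a lower mean with an unadjusted p under 0.05. *Fcer1a* and *Hdc* were also the 2 genes whose libraries did not overlap between the groups, as was true of 26.7% of all genes tested. The median log2 fold change of the 10 was 0.32, with 6 above 0 and 4 below, beside a median of 0.01 over all genes tested. Together the 10 genes took 0.0109% to 0.0143% of all counts in ft/ft and 0.0121% to 0.0202% in ft/ftMyD88-/-, before scaling. The TMM factors were 0.922 to 0.954 in ft/ft and 1.04 to 1.09 in ft/ftMyD88-/-. After scaling, the 10 genes summed to 118 to 150 CPM and to 115 to 186, and the groups overlapped.

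**Figure D1:**
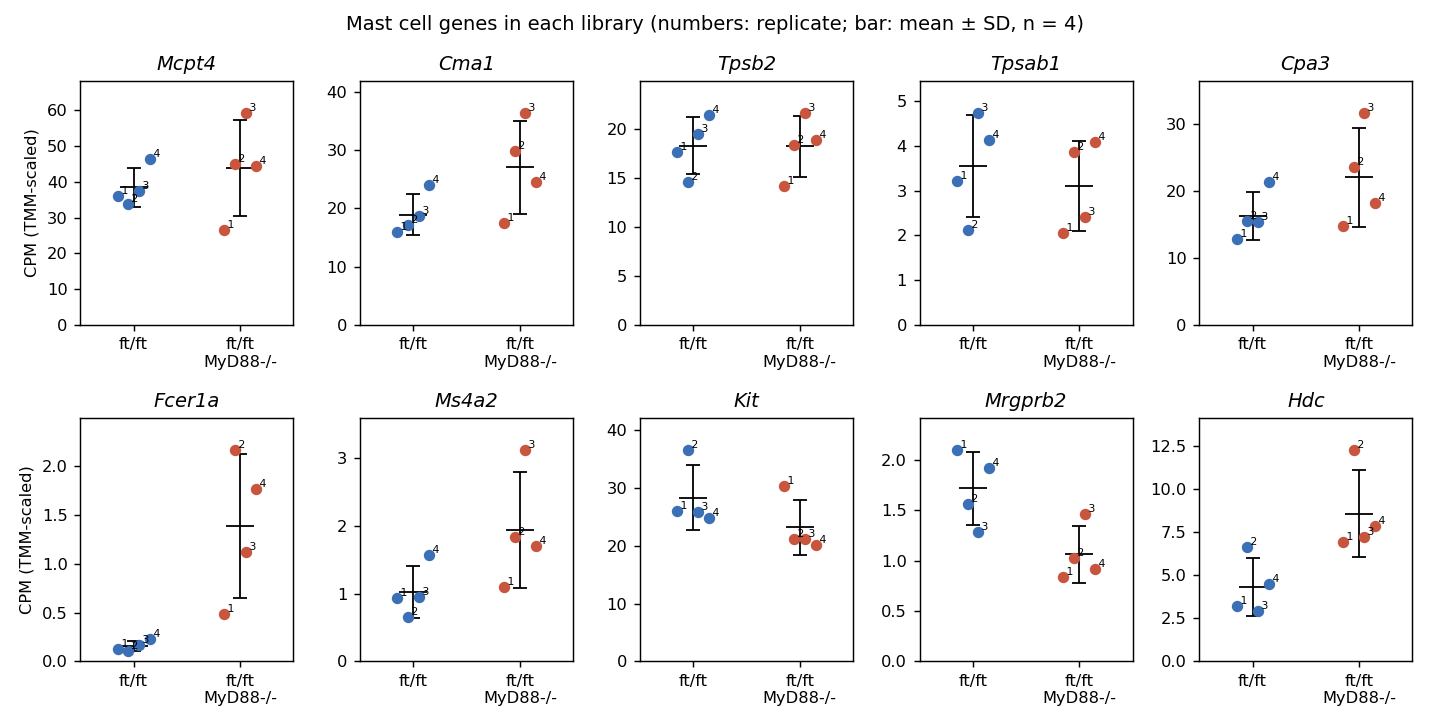
Level of each of the 10 mast cell genes in CPM (TMM-scaled, linear axis from 0) in the 4 libraries of each group. Points are libraries numbered by replicate, and bars are the mean ± SD (n = 4). Only *Fcer1a* and *Hdc* have every ft/ftMyD88-/- library above every ft/ft library.

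The granule proteases are taken first. *Mcpt4* (GRCm38.p6 chr14:56059744-56062310) encodes the main chymase of connective tissue mast cells. It was at 36.0, 33.8, 37.5 and 46.4 CPM in ft/ft replicates 1 to 4 and at 26.5, 45.1, 59.3 and 44.3 in ft/ftMyD88-/-. The second group held both the lowest and the highest library, and the means of 38.4 ± 5.54 and 43.8 ± 13.4 CPM (SD, n = 4 each) differed by a log2 fold change of 0.19 (with a standard error of 0.213 and, by edgeR, an adjusted p of 0.568).

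*Cma1* (chr14:55941451-55944675), which lies in the same protease cluster, was at 16.0, 17.1, 18.7 and 24.0 CPM in ft/ft and at 17.5, 29.8, 36.4 and 24.5 in ft/ftMyD88-/-. The ranges overlapped through ft/ftMyD88-/- replicate 1, and the log2 fold change of 0.52 (with a standard error of 0.21 and, by edgeR, an adjusted p of 0.102) was not called. Without that replicate it was 0.68 (edgeR adjusted p = 0.0124), and DESeq2 also called it (log2 fold change 0.53, adjusted p = 0.0461). *Cpa3* (chr3:20215616-20242209) encodes carboxypeptidase A3, which is stored with the chymases. It was at 12.8, 15.5, 15.3 and 21.4 CPM in ft/ft and at 14.7, 23.6, 31.6 and 18.1 in ft/ftMyD88-/-, with overlapping groups and a log2 fold change of 0.44 (with a standard error of 0.236 and, by edgeR, an adjusted p of 0.209).

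The tryptases are the other class of granule protease, and neither was called. *Tpsb2* (chr17:25366308-25368096) was at 17.6, 14.6, 19.5 and 21.4 CPM in ft/ft and at 14.2, 18.3, 21.7 and 18.8 in ft/ftMyD88-/-. The means were 18.3 ± 2.91 and 18.3 ± 3.1 CPM (SD, n = 4 each), and the log2 fold change was -0.0021 (with a standard error of 0.148 and, by edgeR, an adjusted p of 0.994), with a sign that changed with the normalization. *Tpsab1* (chr17:25343245-25345562) was lower, at 3.21, 2.11, 4.74 and 4.14 CPM in ft/ft against 2.06, 3.86, 2.42 and 4.09 in ft/ftMyD88-/-, and did not differ beyond the replicate spread (log2 fold change -0.19 with a standard error of 0.283, and an adjusted p of 0.666 by edgeR).

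The ratio of chymase to tryptase within a library does not depend on library scaling. As log2 of *Mcpt4* over *Tpsb2* counts it was 1.07 ± 0.114 in ft/ft and 1.22 ± 0.23 in ft/ftMyD88-/- (SD, n = 4 each), a difference of 0.15 (two-sided exact permutation test, p = 0.314). Reads that match 2 genes could move such values. Of the 50-base windows of *Mcpt4* transcripts, 5.48% were also found in the gene *Cma2*, and 5.38% of those of *Cma1* in the gene *Gm48934*. No window of *Tpsb2*, *Tpsab1*, *Cpa3*, *Fcer1a*, *Kit* or *Mrgprb2* was found in another gene's transcripts, by exact match in GENCODE M21.

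The high-affinity IgE receptor differed most. *Fcer1a* (chr1:173221269-173227232) encodes the alpha chain, which binds IgE and is found on mast cells and basophils. It had 3, 3, 3 and 6 counts in ft/ft replicates 1 to 4 and 11, 59, 33 and 29 in ft/ftMyD88-/-. Scaled, this was 0.129, 0.109, 0.167 and 0.23 CPM against 0.482, 2.17, 1.12 and 1.77. Every ft/ftMyD88-/- library lay above every ft/ft library, and replicate 1 was the lowest of its group. The log2 fold change was 3.08 (with a standard error of 0.5 and, by edgeR, an adjusted p of 0.0013), and it stayed between 2.76 and 3.37 over 15 alternatives, in each of which the gene was called. The 132 counts of one group against 15 of the other gave a ratio of 8.71, with a 95% exact interval of 5.09 to 16.0 that covers counting error only.

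The signalling chains of the receptor moved less. *Ms4a2* (chr19:11615517-11623790), the beta chain, was at 0.943, 0.655, 0.948 and 1.57 CPM in ft/ft and at 1.1, 1.84, 3.13 and 1.71 in ft/ftMyD88-/-. The groups overlapped, and the log2 fold change of 0.93 (with a standard error of 0.347 and, by edgeR, an adjusted p of 0.0723) was not called, although DESeq2 called it (adjusted p = 0.0453) and so did edgeR without ft/ft replicate 4 (adjusted p = 0.0424) or without ft/ftMyD88-/- replicate 1 (adjusted p = 0.0297). *Fcer1g*, the gamma chain that mast cells share with many myeloid cells, was at 10.1 ± 1.61 CPM in ft/ft against 14.3 ± 3.97 in ft/ftMyD88-/- (SD, n = 4 each; log2 fold change 0.50, edgeR adjusted p = 0.0859).

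Within a library, log2 of *Fcer1a* over *Ms4a2* counts was -2.68, -2.40, -2.32 and -2.67 in ft/ft and -1.15, 0.24, -1.46 and 0.05 in ft/ftMyD88-/-. All 4 values of the second group were higher, by 1.94 in mean (two-sided exact permutation test, p = 0.0286). With 4 libraries against 4, no lower p can be reached. Adjusted over the 4 ratios compared, p was 0.114.

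Basophils also carry this receptor, so their markers were read beside it. *Mcpt8*, a basophil granule protease, had 0 counts in each ft/ft library and 1, 14, 1 and 0 in ft/ftMyD88-/-, and *Fcer1a* was highest in the replicate 2 that held the 14. *Cd200r3*, a receptor of basophils and mast cells, had 39 counts over ft/ft and 70 over ft/ftMyD88-/- (log2 fold change 0.80, edgeR adjusted p = 0.152). *Prss34* had 5 and 2. Of the 6 basophil genes 5 were tested, none was called higher by edgeR, DESeq2 or limma voom, with 1 higher at an unadjusted p under 0.05, and *Itga2* was lower (log2 fold change -0.41, edgeR adjusted p = 0.0155). The summed level of the list was 59.3 to 77.5 CPM in ft/ft and 47.9 to 70.7 in ft/ftMyD88-/-, most of it *Il6ra* and *Itga2*, which other cells express. The part of basophils in the *Fcer1a* value was not tested.

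*Hdc* (chr2:126593659-126624025) encodes histidine decarboxylase, the enzyme that makes histamine. It was at 3.21, 6.66, 2.9 and 4.52 CPM in ft/ft and at 6.92, 12.3, 7.21 and 7.87 in ft/ftMyD88-/-. The groups did not overlap, but ft/ft replicate 2 lay just under the lowest ft/ftMyD88-/- library. *Hdc* was 1.98-fold higher in mean (log2 fold change 0.98 with a standard error of 0.274, and an adjusted p of 0.0255 by edgeR). That call was lost without ft/ft replicate 1, 3 or 4 and without ft/ftMyD88-/- replicate 2 or 4, with adjusted p from 0.0519 to 0.0668 and log2 fold changes from 0.75 to 1.03. Relative to *Cpa3* in the same library, log2 of the ratio was -1.96 ± 0.521 in ft/ft and -1.34 ± 0.539 in ft/ftMyD88-/-, with overlapping groups (difference 0.62, two-sided exact permutation test, p = 0.143, adjusted p = 0.19).

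Neutrophils and other myeloid cells can also express *Hdc*. The neutrophil list (10 genes, 9 in the table, 8 tested) summed to 63.3 to 362 CPM in ft/ft and to 434 to 1082 in ft/ftMyD88-/-, and its 1 called gene was *Csf3r*, the receptor of G-CSF (log2 fold change 1.42, edgeR adjusted p = 0.0476). That call was lost in 7 of 15 alternatives, and the number called in the list ran from 0 to 3 over them, with 3 by DESeq2 and 3 by limma voom. Of that sum, *S100a8* held 25.8 ± 41.8 CPM in ft/ft against 242 ± 116, and *S100a9* 39.2 ± 63.4 against 368 ± 133 (SD, n = 4 each). Both encode calcium-binding proteins of neutrophils and inflamed keratinocytes. A further part was *Ltf*, at 58.2 ± 35.9 CPM in ft/ft against 183 ± 140 (SD, n = 4 each). *Ly6g* was not analysed here, *Ngp* had 1 count over ft/ft and 5 over ft/ftMyD88-/-, and *Elane*, neutrophil elastase, had 6 and 9. The macrophage list summed to 610.5 to 815 CPM in ft/ft and to 841 to 1151 in ft/ftMyD88-/-, with 2 of 10 genes higher. Over the 8 libraries, the deviation of *Hdc* from its group mean had r = 0.675 to that of the neutrophil list. The value was 0.644 for the macrophage list and 0.648 for the list of granule storage and mediator synthesis. It was higher for IgE receptor signalling (0.782) and other mast cell receptors (0.743), lists taken up below, and was -0.806 for the melanocyte list. Replicate 2 was the highest ft/ft library both for *Hdc* and for the neutrophil list, where it lay 1.85 above the group mean on the log2 scale. The deviations of the neutrophil list average only its 5 genes with a mean of at least 1 CPM. *S100a8*, *S100a9* and *Ltf* are among these, and *Ngp* and *Elane* are not. The part of neutrophils and other myeloid cells in the difference of *Hdc* between the groups was not tested.

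*Kit* (chr5:75574987-75656722), the stem cell factor receptor, was at 26.1, 36.7, 25.8 and 24.8 CPM in ft/ft and at 30.3, 21.2, 21.2 and 20.1 in ft/ftMyD88-/-. One library of each group stood above the rest, replicate 2 in ft/ft and replicate 1 in ft/ftMyD88-/-. The log2 fold change was -0.29 (with a standard error of 0.159 and, by edgeR, an adjusted p of 0.21), and without ft/ftMyD88-/- replicate 1 it was -0.44 and was called (edgeR adjusted p = 0.0417). *Kitl*, the gene of its ligand, was at 30.4 ± 4.96 and 35.2 ± 5.66 CPM (SD, n = 4 each; log2 fold change 0.21, edgeR adjusted p = 0.294). Log2 of *Kit* over *Cpa3* was 0.81 ± 0.445 in ft/ft and 0.12 ± 0.687 in ft/ftMyD88-/- and overlapped (two-sided exact permutation test, p = 0.143, adjusted p = 0.19).

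Melanocytes also depend on KIT. Of 10 melanocyte genes 3 were higher in ft/ftMyD88-/-, *Mlana* (log2 fold change 1.55, edgeR adjusted p = 0.0131), *Mc1r* (1.45, 0.0158) and *Slc24a5* (0.62, 0.0373), with 1 to 6 higher over the 15 alternatives and 5 by DESeq2. *Slc24a5* lost its call in 5 of them. The summed level of the list was 165 to 249 CPM in ft/ft and 170 to 304 in ft/ftMyD88-/-. Within the groups, the deviation of *Kit* from its group mean had r = 0.166 to that of the melanocyte list. The part of melanocytes in the *Kit* value was not tested.

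*Mrgprb2* (chr7:48550965-48558086) encodes the receptor through which peptides and many drugs set off connective tissue mast cells without IgE. It was at 2.1, 1.56, 1.28 and 1.92 CPM in ft/ft and at 0.833, 1.03, 1.46 and 0.915 in ft/ftMyD88-/-. Only replicate 3 of ft/ftMyD88-/- reached into the range of ft/ft. The log2 fold change of -0.68 (with a standard error of 0.255 and, by edgeR, an adjusted p of 0.0718) was not called, and it was called without that replicate (log2 fold change -0.87, edgeR adjusted p = 0.0333). Its family member *Mrgprb1* was at 2.39 ± 0.553 and 3.19 ± 0.758 CPM (SD, n = 4 each; log2 fold change 0.43, edgeR adjusted p = 0.2).

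**Figure D2:**
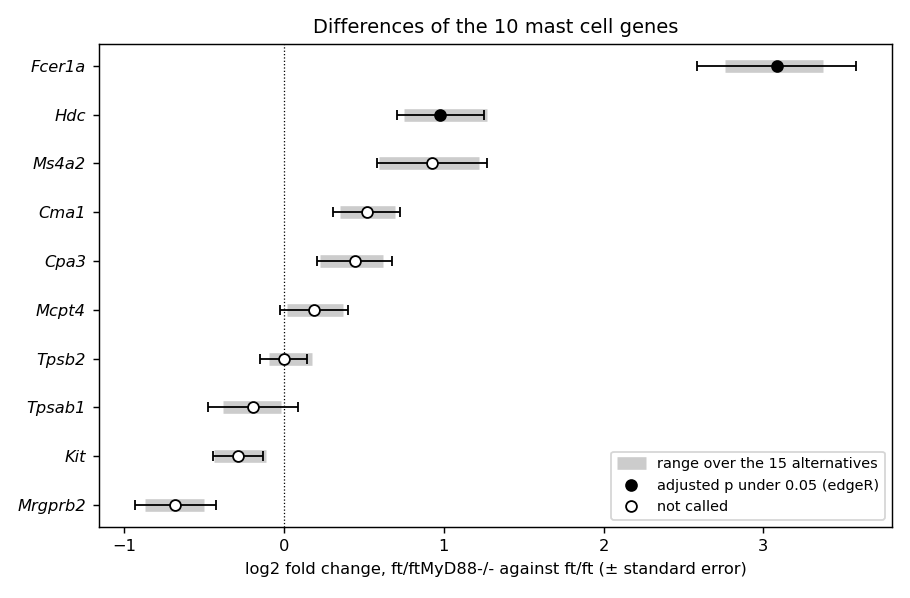
Log2 fold change of each mast cell gene, ft/ftMyD88-/- against ft/ft, with its standard error (edgeR). Filled points have an adjusted p under 0.05, and grey bars span the 15 alternatives. *Fcer1a* stands at 3.08 and *Hdc* at 0.98, and the open points run from -0.68 for *Mrgprb2* to 0.93 for *Ms4a2*.

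To order the genes by level, CPM were divided by exon length in kilobases (RPKM, from GENCODE M21 exons). In ft/ft, *Mcpt4* was first at 34.7 ± 5 RPKM (SD, n = 4), followed by *Cma1* at 17.4 ± 3.25, *Tpsb2* at 11.5 ± 1.82 and *Cpa3* at 10.7 ± 2.39. *Tpsb2* and *Cpa3* overlapped, and each was the higher in 2 of the 4 libraries. *Kit* followed at 3.18 ± 0.627 and *Tpsab1* at 1.7 ± 0.548. The last 4 were *Mrgprb2* at 0.826 ± 0.176, *Hdc* at 0.677 ± 0.267, *Ms4a2* at 0.366 ± 0.138 and *Fcer1a* at 0.159 ± 0.0534, where only *Ms4a2* and *Fcer1a* were neighbours without overlap. In ft/ftMyD88-/-, *Mcpt4* (39.5 ± 12.1), *Cma1* (24.8 ± 7.36) and *Cpa3* (14.5 ± 4.87) overlapped between libraries but kept that order within each of the 4. *Fcer1a* was 7th there, at 1.39 ± 0.742, between *Tpsab1* at 1.48 ± 0.485 and *Hdc* at 1.34 ± 0.394, and overlapped with both.

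Within each group the libraries differed from each other in several mast cell genes at once. Deviations of log2 CPM from the group mean were taken in the 8 libraries, which share their depth and scaling between genes, so the correlations below are descriptions. *Mcpt4* and *Cma1* had r = 0.954, *Cma1* and *Cpa3* 0.974, *Tpsb2* and *Ms4a2* 0.942 and *Mcpt4* and *Ms4a2* 0.924. Over the 28 pairs of the 8 genes other than *Kit* and *Hdc* the median r was 0.662, with a range from -0.157 to 0.974, and *Tpsab1* and *Mrgprb2* were the least alike. The mean deviation of those 8 genes was lowest in ft/ftMyD88-/- replicate 1, at -0.60, and highest in ft/ft replicate 4, at 0.35. *Kit* went the other way, with r = -0.861 to that mean, and *Hdc* had r = 0.0757.

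The genes most like the 8-gene mean, among 14673 genes with a mean of at least 1 CPM, were not mast cell genes. Among the 8 closest were *Ppm1j* (r = 0.996), *Phkg1* (0.98), *Tpm2* (0.98), *Zdbf2* (0.979), *Isl1* (0.977), *Coq10a* (0.975) and *Tcea3* (0.974). *Tpm2* encodes a muscle tropomyosin and *Phkg1* the muscle subunit of phosphorylase kinase. All 8 of the closest were called lower in ft/ftMyD88-/-, while the mast cell genes were not. The mean deviation of 10 skeletal muscle genes, 9 of them at 1 CPM or more, had r = 0.941 to the 8-gene mean, that of 8 endothelial genes 0.904, and those of dermal fibroblast and keratinocyte genes 0.596 and -0.458. Of the other genes linked to mast cells, *Lat2*, an adaptor of the IgE receptor, came closest (r = 0.918), followed by *Hexa* (0.859) and *Mrgprb1* (0.837). The summed muscle list was at 8235 to 11232 CPM in ft/ft and at 3175 to 6131 in ft/ftMyD88-/-. The part of uneven muscle between biopsies in the mast cell values was not tested.

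**Figure D3:**
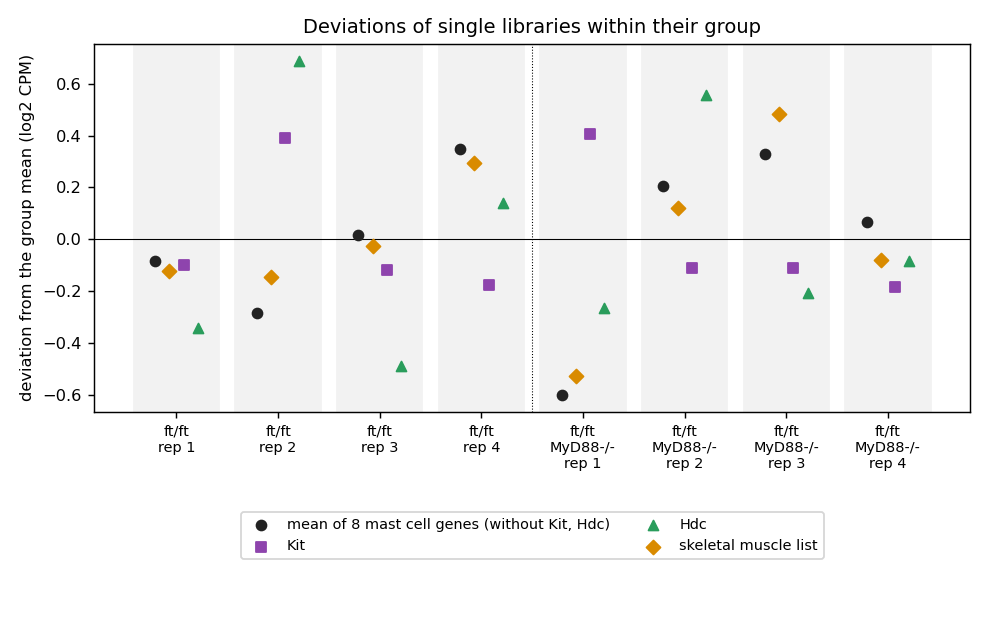
Deviation of log2 CPM from the group mean in each library for the mean of 8 mast cell genes, *Kit*, *Hdc* and the mean of the skeletal muscle list. Replicates have no order. The 8-gene mean and the muscle list lie close in most libraries, and both are lowest in ft/ftMyD88-/- replicate 1, where *Kit* is high.

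Other genes linked to mast cells were taken from 7 lists, which hold 85 genes, 81 of them in the table and 79 tested. In ft/ftMyD88-/-, 17 were higher and 5 lower, or 27.8% of the 79 against 23.3% of all genes tested. By direction, 10.9% of all genes tested were higher and 12.3% lower, which also stands beside the single lists below. The median log2 fold change of the 79 was 0.34. Of the further proteases, *Ctsg* (cathepsin G, also of neutrophils) had 1, 5, 0 and 3 counts in ft/ft against 13, 12, 9 and 8 (log2 fold change 2.20 with a standard error of 0.582, and an adjusted p of 0.0174 by edgeR). *Gzmb* (granzyme B, also of cytotoxic T cells) had 0, 5, 4 and 5 against 6, 26, 14 and 15 counts (log2 fold change 2.09, edgeR adjusted p = 0.0282), a call lost with limma voom and without ft/ft replicate 4 or ft/ftMyD88-/- replicate 2 or 4. The mucosal mast cell proteases *Mcpt1* and *Mcpt2* had 1 and 0 counts over the ft/ft libraries and 3 and 7 over ft/ftMyD88-/- and were not tested, so a difference was not detectable at this depth.

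Of 16 genes that carry the signal of the IgE receptor, 7 were higher and the other 9 were not called, with a median log2 fold change of 0.42. Among them were *Lat* (log2 fold change 0.94, edgeR adjusted p = 0.00286), *Vav1* (0.76, 0.00293) and *Lat2* (0.75, 0.0391). *Lat* and *Vav1* also serve the T cell receptor. All 8 genes of the T cell list were higher, with a summed level of 15.4 to 21.4 CPM in ft/ft and 27.9 to 37.5 in ft/ftMyD88-/-, and the part of T cells in these values was not tested. *Lat2* lost its call in 9 of 15 alternatives.

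Of 17 further receptors, 3 were higher and 1 lower, and the number higher ran from 1 to 6 over the 15 alternatives, with 6 by DESeq2. *Il4ra*, the IL-4 receptor (log2 fold change 0.99, edgeR adjusted p = 0.0354), *Il3ra*, the IL-3 receptor (0.90, 0.00384), and *C3ar1*, the receptor of complement C3a (0.68, 0.0274), were higher, and *Il1rap*, the chain that IL-1 and IL-33 receptors share, was lower (-0.59, 7.86e-04). The call was lost in 6 of 15 alternatives for *Il4ra* and in 5 for *C3ar1*. *Il1rl1*, the IL-33 receptor, which signals through MyD88, was at 3.13, 3.49, 3.96 and 3.22 CPM in ft/ft and at 4.34, 37.5, 5.72 and 9.21 in ft/ftMyD88-/-. Every library of the second group was higher, replicate 2 by far the most, and the log2 fold change of 2.05 (standard error 0.763) had an edgeR adjusted p of 0.104.

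Among 10 transcription factors, *Runx1* was higher (log2 fold change 0.75, edgeR adjusted p = 0.00176) and *Ikzf2* lower (-0.44, 0.0242), a call lost in 4 of 15 alternatives. *Gata2* stood at 5.01 ± 0.707 CPM in ft/ft against 6.08 ± 0.874 in ft/ftMyD88-/- (SD, n = 4 each; log2 fold change 0.29, edgeR adjusted p = 0.218), and *Mitf*, also a melanocyte regulator, at 23.8 ± 1.72 and 27.3 ± 4.11 (0.20, 0.245). Of 21 genes of granule storage and mediator synthesis, 2 were higher and 3 lower, with 4 higher by DESeq2. *Srgn*, the granule proteoglycan serglycin that many leukocytes make, was at 17.6 ± 1.9 CPM in ft/ft and rose to 44.0 ± 11.6 (SD, n = 4 each; log2 fold change 1.31, edgeR adjusted p = 5.12e-04). The cyclooxygenase genes parted, with *Ptgs2* higher (1.93, 0.00335) and *Ptgs1* lower (-1.21, 1.67e-04), and *Rab27a*, a GTPase of granule transport, was lower (-0.57, 0.00322).

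Of 8 growth factors of mast cells, 6 were in the table and 2 were higher (1 in 6 of 15 alternatives), among them *Cxcl12*, a chemokine of stromal cells (log2 fold change 0.61, edgeR adjusted p = 0.0139). Of 6 genes of histamine receptors and breakdown, 5 were tested, and 0 were called by edgeR, DESeq2 or limma voom, with 1, *Hrh2*, at an unadjusted p under 0.05. Of 8 eosinophil genes, 7 were tested and 3 called, with *Siglecf* (1.32, 0.00476) and *Ear6* higher and *Ear2* lower (-1.52, 0.0383), a call that *Ear2* lost in 7 of 15 alternatives. *Ear6* had 0 counts in each ft/ft library and 3, 5, 2 and 10 in ft/ftMyD88-/-.

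**Figure D4:**
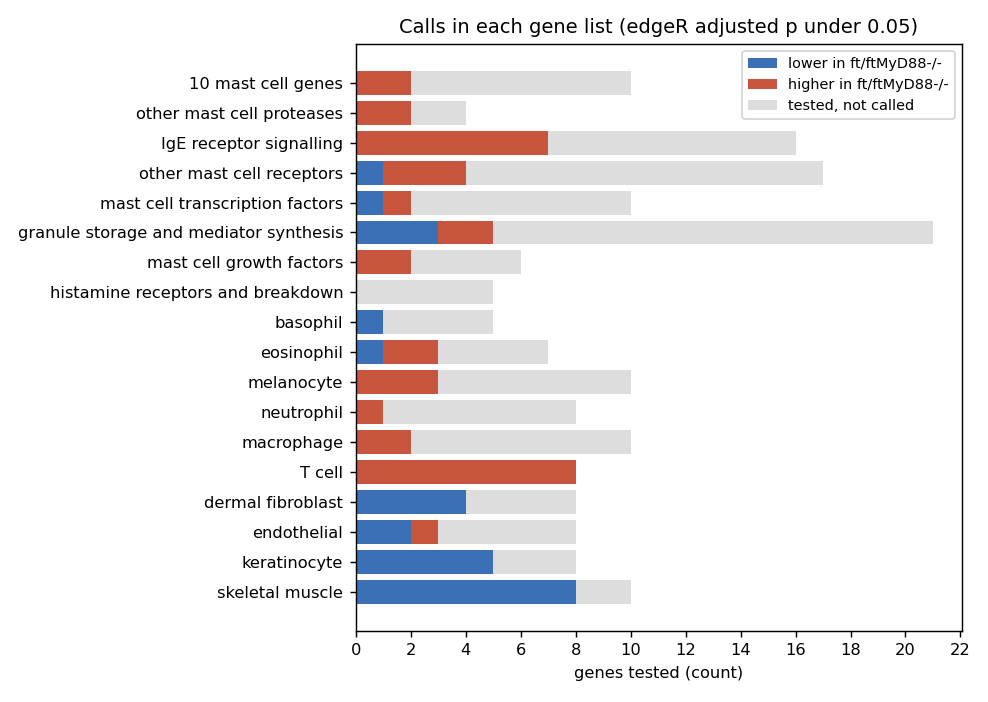
Number of genes tested in each list, split into those lower (blue), higher (red) and not called (grey) in ft/ftMyD88-/- at an edgeR adjusted p under 0.05. The 10 mast cell genes hold 2 higher, the IgE receptor signalling list 7 of 16 and the T cell list 8 of 8. In the skeletal muscle list 8 of 10 are lower. Over all genes tested, 10.9% were higher and 12.3% lower.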

How the data were processed

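Gene counts of periocular skin were taken from 4 ft/ft and 4 ft/ftMyD88-/- libraries. The authors deposited raw counts per gene without normalization, made, per the paper, by aligning 50-cycle single-end reads of polyA-selected libraries to GRCm38.p6 (HISAT, and tophat2 for genes) and running HTSeq with its defaults. Tool versions, annotation release and strand setting are not given in the sources used here, and the labels of these 8 samples instead give total RNA, a protocol for fixed tissue, and Cell Ranger. HTSeq's defaults leave out reads that align to several places. Columns were matched to samples by library name. No per-sample column was left unused.

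Genes with at least 10 summed counts entered edgeR 4.0.16 under R 4.3.3 (TMM, glmQLFit with robust = TRUE, glmQLFTest, two-sided) and Benjamini-Hochberg adjustment over 20454 genes. Standard errors were derived from the log2 fold change and F. Alternatives were RLE normalization, library size alone, DESeq2 1.42.0, voom of limma 3.58.1, filterByExpr, no filter, a replicate block and each library left out, 15 in all. Ratios of 2 genes used 0.5 added counts. Log2 CPM had a prior count of 2. In simulated counts for 20214 tested genes of this comparison, 81 of 100 genes changed 2-fold and 100 of 100 changed 4-fold were called, with 9 unchanged genes. The changed genes were drawn only from those above a minimum mean count, and the same replicate spread was set for every gene. These rates therefore do not cover genes of few counts, such as *Fcer1a* and *Ctsg*, or genes with an outlying library. Between replicates, chi-square over its degrees of freedom was 15.1 or more, so no library repeats another. The labels number the replicates without saying that each was a separate mouse, so p-values measure the spread between these samples. Whether the reads carried molecular identifiers cannot be told from these sources, so floors and intervals cover counting error only.

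The members and lists were chosen with earlier results of these data known. The genes named are the 10 members, the checks *Myd88*, *Flg*, *Xist* and *Ddx3y*, up to 4 called genes of each list with the largest change, and the 8 genes most like the members. Some genes that this rule names are not reported here. *Tmem79*, *Fcer1g*, *Kitl*, *Mrgprb1*, *Il1rl1*, *Gata2*, *Mitf*, *Cd200r3*, *Mcpt8*, *Mcpt1*, *Mcpt2*, *Prss34*, *Il6ra*, *Hexa*, *Hrh2*, *Ngp*, *Elane*, *Ltf*, *S100a8* and *S100a9* were named after their values were seen.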

Additional observations from a re-analysis of the deposited data

Results flagged for a closer look

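In all, 28 groups of 4 libraries were examined (10 genes and 4 ratios in both conditions). Of these, 2 held a library far from the other 3. Chance gives about 1 in 20, or 1.4 of the 28 groups, so 2 is near that number. Both were of *Kit*. It was at 36.7 CPM in ft/ft replicate 2 against 24.8 to 26.1 in the other 3, a gap of 0.888 of the group's range. It was at 30.3 CPM in ft/ftMyD88-/- replicate 1 against 20.1 to 21.2, a gap of 0.897 of the range. These 2 libraries had the lowest 8-gene mean of mast cell genes in their groups, at -0.28 and -0.60 on the log2 scale from the group mean.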

How the results depend on the processing

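*Fcer1a*, *Mcpt4*, *Cpa3* and *Tpsab1*, the 4 ratios and the median of the 10 genes kept their direction and their side of the threshold under every alternative run for them. Library size alone moved the median of all genes from 0.01 to 0.19 and the share of calls that were higher from 47.0% to 77.8% (4638 genes higher, 1326 lower, against 2239 and 2525). It called 4 mast cell genes higher, with *Cma1* at 0.70 and *Ms4a2* at 1.11, and 30 higher and 3 lower in the 7 further lists. DESeq2 called 4 as well (*Cma1* 0.53, *Ms4a2* 0.93). The cause of these shifts was not tested beyond the scaling itself. *Tpsb2* changed sign, at 0.0090 with RLE, 0.18 with library size alone, 0.0095 with DESeq2, 0.0063 with voom and 0.0082 with filterByExpr. With single libraries left out, 1464 to 2260 genes were higher over all genes, 1 to 4 mast cell genes were higher and 0 to 1 lower, and log2 fold changes ran from 0.35 to 0.68 for *Cma1*, -0.10 to 0.11 for *Tpsb2*, 0.60 to 1.22 for *Ms4a2*, -0.44 to -0.14 for *Kit*, -0.87 to -0.57 for *Mrgprb2* and 0.75 to 1.27 for *Hdc*. Without ft/ft replicate 1 or 3, or without ft/ftMyD88-/- replicate 2 or 4, *Fcer1a* was the 1 gene called. Of the 8 genes most like the mast cell genes, 2 remained with Spearman's correlation and 2 with a mean over all 10 genes.

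Same-numbered libraries did not deviate together over the genes (r from -0.311 to 0.064). With 4 libraries per group, and since a pairing could touch few genes, these values cannot show whether the number pairs them. With the replicate number as a block, 1895 genes were higher and 2144 lower, and the calls of the 10 genes did not change. *Fcer1a* rested on 15 counts in ft/ft, and *Mcpt1*, *Mcpt2* and *Prss34* were too shallow to test.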
